A study of Mus musculus with 6 samples.

Results

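Gad1, Arc, Trpm5, Camk2n1, Rap1gap2, Sgsm1, Myo10 and Lyve1 are 8 of the 52542 mouse genes counted in single islet cells after removal of part of the pancreas. They were chosen by their low levels in insulin-producing wells of mice after that operation, in these same data, so their values in that comparison are given as a description and without a p-value. Islets were collected 4 weeks after a partial pancreatectomy (ppx, 3 plates) or a sham operation (sham, 3 plates), and each plate held 384 wells. All mice were males of the strain Sox9-CreER; tdTomato, in which tamoxifen lets a Cre recombinase under control of the Sox9 gene, active in pancreatic ducts, switch on a red reporter. All received tamoxifen (8 mg) from 10 weeks of age for 2 weeks and had surgery at 12 weeks. Ppx plate 1 and sham plate 1 held tomato-positive cells, ppx plates 2 and 3 and sham plate 3 held tomato-negative cells, and sham plate 2 was mixed.

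Beta cells make insulin, but they also share much of the equipment of neurons. They synthesise and release the transmitter GABA, fire calcium-dependent action potentials when glucose rises, and release granules through Rab and Rap GTPases. The 8 genes touch these functions at different points. Gad1 encodes a glutamate decarboxylase, the enzyme that makes GABA, and Arc is an immediate early gene that neuronal activity switches on. Trpm5 is a calcium-activated cation channel known from taste cells and beta cells, and Camk2n1 is an inhibitor of the calcium/calmodulin-dependent kinase CaMKII. Rap1gap2 switches off the GTPase Rap1, Sgsm1 is a modulator of small G proteins that binds Rap and Rab proteins, and Myo10 is a myosin that carries cargo to the tips of filopodia. Lyve1 is a hyaluronan receptor known mainly from lymphatic endothelium and tissue macrophages.

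Wells were profiled by MARS-seq, which tags each transcript at its 3′ end with a unique molecular identifier (UMI). Plates held 1250861 to 1508513 UMIs, and 2115 of 2304 wells passed the filters. A well was called insulin-only when Ins1 and Ins2 together took at least 3.3% of its UMIs, somatostatin (Sst) under 0.73% and glucagon (Gcg) under 2.3%. This left 20, 294 and 292 wells on ppx plates 1 to 3, against 24, 177 and 193 on sham plates 1 to 3, or 1000 wells in all. Their median depth was 4528.5, 3848 and 3996.5 UMIs on the ppx plates and 5397, 4483 and 4817 on the sham plates, and insulin took a median of 31.1%, 15.8% and 14.9% of a ppx well and 26.1%, 22.8% and 25.3% of a sham well. All 8 beta cell markers were detected on every plate, while endothelial, macrophage and stromal markers summed to 6.48 to 54.3 UMIs per 1000000 UMIs (CPM) on the ppx plates and 0 to 81.4 on the sham plates. The vascular gene Cdh5 and the macrophage gene Adgre1 were at 0 on all 6 plates, but on sham plate 3 the other 7 of 8 genes of each list were seen. Other lists, which include the hormone genes, summed higher. Over the 6 plates they gave 3446 to 5815 CPM for alpha, 1109 to 7452 for pancreatic polypeptide and 242 to 3758 for delta cell markers. Duct markers summed to 445 to 534 CPM. Plates are the replicates, no well barcode was shared between them, and the labels do not tie them to mice, so that p-values measure the spread between plates. Free RNA from other cells was not separated from a well's own, and intervals and limits given for counts cover counting error only.

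The 250 bases before the RefSeq start (GRCm38.p6) are shown for 3 of the 5 genes with a window, so that genes that lie low together can be compared. The 3 were picked by their calls in the contrast that chose the genes, which is no evidence about them. Gad1 lies at chr2:70553072-70602014 on the plus strand, Trpm5 at chr7:143069153-143094642 and Sgsm1 at chr5:113243220-113310786, both on the minus strand, in GENCODE on GRCm38. The other genes lie at chr15:74669083-74672570 (Arc), chr4:138454314-138460123 (Camk2n1), chr11:74383356-74610915 (Rap1gap2), chr15:25622525-25813673 (Myo10) and chr7:110850607-110863239 (Lyve1). The windows run 5′ to 3′ along the gene's strand and span chr2:70561879-70562041 for Gad1, which lies inside the GENCODE span of the gene and stops before the next exon annotated there, chr7:143094643-143094892 for Trpm5 and chr5:113310787-113311036 for Sgsm1. Capitals mark the letters TAAT, the core of homeodomain sites such as those of Pdx1, TGCTGA, the core of Maf sites, and TGACG, part of the cyclic AMP response element, on either strand.
Gad1: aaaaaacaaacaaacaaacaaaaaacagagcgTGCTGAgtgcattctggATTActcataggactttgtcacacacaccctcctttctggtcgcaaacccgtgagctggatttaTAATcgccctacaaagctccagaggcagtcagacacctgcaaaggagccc
Trpm5: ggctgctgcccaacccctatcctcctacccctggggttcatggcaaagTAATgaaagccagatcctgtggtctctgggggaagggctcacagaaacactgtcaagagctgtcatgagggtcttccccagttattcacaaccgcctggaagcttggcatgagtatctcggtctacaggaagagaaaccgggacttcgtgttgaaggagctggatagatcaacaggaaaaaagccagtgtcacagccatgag
Sgsm1: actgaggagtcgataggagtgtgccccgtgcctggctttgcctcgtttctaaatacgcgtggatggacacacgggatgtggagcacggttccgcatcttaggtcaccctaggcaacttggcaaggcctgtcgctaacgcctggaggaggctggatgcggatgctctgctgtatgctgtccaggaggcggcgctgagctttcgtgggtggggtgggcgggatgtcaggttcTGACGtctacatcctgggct
The full response element TGACGTCA was in none of the 5 windows of 250 bases that RefSeq gives for these genes (Gad1, Trpm5, Rap1gap2, Sgsm1 and Myo10) and in 1.55% of 32851 mouse windows of that length. TAAT was in 3 of the 5, against 54.92% of all windows, TGCTGA in 1 against 16.08%, TGACG in 1 against 17.77%, and CAGATG, an E-box of the NeuroD type, in none against 14.44%. No motif other than TAAT was in more than 1 of the 5 windows. Gad1os, annotated antisense to Gad1, had 1 UMI.

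Gad1, the GABA-making enzyme, had 36.2, 61.4 and 60.7 CPM in insulin-only wells of ppx plates 1 to 3, against 84.4, 150 and 127 CPM on sham plates 1 to 3. Every ppx plate lay below every sham plate. The levels averaged 52.8 ± 14.4 CPM in ppx and 121 ± 33.4 CPM in sham (SD, n = 3 each), a log2 fold change of -1.22 (SE 0.19) by edgeR. The counts behind them were 4, 75 and 75 UMIs on the ppx plates and 12, 127 and 122 on the sham plates, so plate 1 of each operation carries wide counting error. The ratio was 0.429 between the tomato-positive plates and 0.480 between the tomato-negative ones. Gad2, the sister enzyme of Gad1, and the GABA transporters Slc32a1 and Slc6a13 had 0 UMIs in all wells.

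Arc had 18.1, 3.28 and 7.29 CPM on the ppx plates and 28.1, 20.1 and 20.9 CPM on the sham plates. The plates did not overlap, but the counts were only 2, 4 and 9 UMIs in ppx and 4, 17 and 20 in sham. The log2 fold change was -1.90 (SE 0.47), and without ppx plate 2 it was -1.40. Arc had the fewest UMIs of the 8 genes and the widest error.

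Trpm5, the cation channel, had 90.6, 77.8 and 92.3 CPM on the ppx plates and 84.4, 143 and 158 CPM on the sham plates. Its groups overlapped, because the tomato-positive sham plate lay among the ppx plates. The ratio was 1.07 between the tomato-positive plates, with 10 UMIs in ppx and 12 in sham, and 0.540 between the tomato-negative ones. Camk2n1, the CaMKII inhibitor, had 389, 426 and 475 CPM on the ppx plates and 633, 686 and 586 CPM on the sham plates, without overlap. Its log2 fold change was -0.60 (SE 0.14) and rested on 43 to 587 UMIs per ppx plate and 90 to 580 per sham plate, so that it had the smallest error of the 8.

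Among the regulators of small G proteins, Sgsm1 had 18.1, 36.0 and 22.7 CPM on the ppx plates and 70.3, 68.6 and 53.2 CPM on the sham plates, without overlap and with a log2 fold change of -1.18 (SE 0.25). Rap1gap2 had 109, 129 and 129 CPM in ppx and 127, 187 and 184 CPM in sham. Its groups overlapped by the tomato-positive sham plate, as for Trpm5. The log2 fold change was -0.56 (SE 0.15) for Rap1gap2 and -0.81 (SE 0.18) for Trpm5.

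Myo10, the filopodial myosin, had 54.3, 51.6 and 47.0 CPM on the ppx plates and 56.3, 92.3 and 72.0 CPM on the sham plates. No ppx plate reached the lowest sham plate, but the tomato-positive pair differed by a ratio of 0.966, with 6 UMIs in ppx and 8 in sham. Lyve1 had 18.1, 23.7 and 23.5 CPM in ppx and 35.2, 55.6 and 46.9 CPM in sham, also without overlap. Their log2 fold changes were -0.75 (SE 0.21) and -1.16 (SE 0.26). In all, 6 of the 8 genes had plates that did not overlap, all lower in ppx, where 5.04% of the 9700 genes with at least 30 UMIs lay lower and 7.05% higher on every ppx plate.

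**Figure D1:**
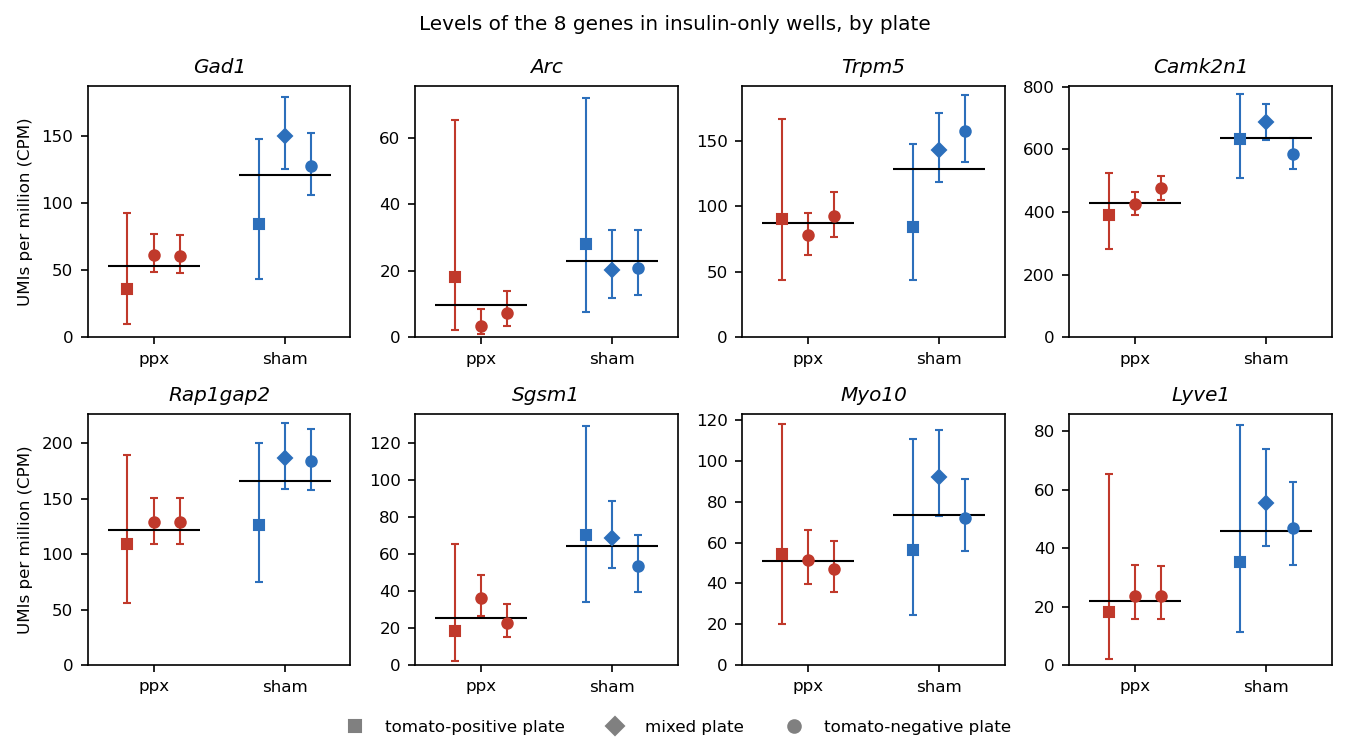
Levels of the 8 genes in insulin-only wells, in UMIs per 1000000 UMIs (CPM), with ppx plates left and sham plates right in each panel. Points are plates, shaped by tomato status, bars are exact 95% Poisson intervals of the count and lines are means of 3 plates. The groups are apart for Gad1, Arc, Camk2n1, Sgsm1, Myo10 and Lyve1, and overlap for Trpm5 and Rap1gap2.

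Across all genes tested in these wells, 8 of 8181 (0.0978%) were called lower in ppx and 19 (0.232%) higher (edgeR, Benjamini-Hochberg adjusted p under 0.05). This contrast chose the genes of this report, so a call of one of them is no test of it. The 8 called lower included Gad1, Trpm5, Camk2n1, Sgsm1 and Lyve1, while Arc, Rap1gap2 and Myo10 did not pass. Of the 8 genes, 2 were called with DESeq2 (10 of all 8181 genes, both directions), 7 without the tomato-positive plates (57 of 8983) and 6 without ppx plate 1 (49 of 8927). The number was 3 without sham plate 1 (20 of 8846) and 2 without ppx plate 2 (17 of 8396) or sham plate 3 (12 of 8429). It was 1 without ppx plate 3 (14 of 8379) or sham plate 2 (19 of 8856). Nothing is read from these counts. The number of genes called depended on plates, with 12 without sham plate 3, 14 without ppx plate 3, 17 without ppx plate 2 and 49 without ppx plate 1. Median depth and insulin share were lower on ppx plates 2 and 3 than on every sham plate. Ppx plate 1 had the highest insulin share, at 31.1%, and its depth of 4528.5 UMIs lay above that of sham plate 2, at 4483. The part of depth and insulin share in the differences was not tested. When insulin UMIs were left out of the totals, when wells were held to stricter hormone thresholds and in the other alternatives, 14 in all for each gene, the log2 fold change stayed below 0. It lay between -1.38 and -1.08 for Gad1, between -0.656 and -0.533 for Camk2n1 and between -1.54 and -0.910 for Sgsm1.

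A lower plate level can come with fewer wells that show a gene or with fewer UMIs in the wells that do. For Gad1 both were lower. A UMI was seen in 15%, 18.0% and 20.5% of insulin-only wells on the ppx plates and in 33.3%, 35.6% and 37.3% on the sham plates, without overlap. The positive wells held 1.33, 1.42 and 1.25 UMIs on average in ppx and 1.5, 2.02 and 1.69 in sham. Wells with 3 or more Gad1 UMIs numbered 6 of 606 in ppx and 31 of 394 in sham. In glucagon-only wells, a class of cells that served as background for the share, 2.61% had a Gad1 UMI at median depths of 2866.5 to 8997 UMIs per plate, against 3848 to 5397 in insulin-only wells.

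Since sham wells were deeper, each well was also thinned to 1000 or 2000 UMIs, and the share is the mean over all possible draws. At 2000 UMIs, which kept 537 ppx and 378 sham wells, a Gad1 UMI remained in 8.72%, 9.58% and 11.6% of ppx wells and in 17.3%, 21.5% and 21.0% of sham wells. The groups still did not overlap. At 1000 UMIs (597 ppx and 393 sham wells) the mean was 5.30% ± 0.661 in ppx and 10.9% ± 1.33 in sham (SD, n = 3 each), a ratio of 0.484 beside 0.504 without thinning.

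The shares of Sgsm1 and Lyve1 were also lower in ppx. A Sgsm1 UMI was in 10.0%, 12.2% and 8.22% of ppx wells and in 29.2%, 22.0% and 21.2% of sham wells, and a Lyve1 UMI was in 10.0%, 8.50% and 7.53% of ppx wells and in 16.7%, 18.1% and 18.7% of sham wells. After thinning to 2000 UMIs the means were 5.48% ± 1.32 in ppx and 10.6% ± 1.17 in sham for Sgsm1, and 3.65% ± 0.904 in ppx and 8.81% ± 2.06 in sham for Lyve1. The positive wells held 1, 1.22 and 1.17 Sgsm1 UMIs on average in ppx and 1.43, 1.49 and 1.24 in sham, and 1, 1.16 and 1.32 Lyve1 UMIs in ppx and 1.25, 1.47 and 1.25 in sham, where Lyve1 overlaps. Arc was sparser still: each of its 15 positive ppx wells held 1 UMI, against 1.28 UMIs on average in its 32 positive sham wells.

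Camk2n1 was seen in most wells, and both its share and its UMIs per positive well were lower in ppx. A UMI was in 85.0%, 76.5% and 78.8% of ppx wells and in 100%, 92.1% and 90.2% of sham wells. The positive wells held 2.53, 2.31 and 2.55 UMIs in ppx and 3.75, 3.56 and 3.23 in sham, without overlap. Wells with 3 or more Camk2n1 UMIs numbered 176 of 606 in ppx and 215 of 394 in sham. Rap1gap2 overlapped in level but not in share: 25.0%, 38.4% and 39.7% of ppx wells and 54.2%, 56.5% and 58.0% of sham wells had a UMI. On ppx plate 1 its 12 UMIs sat in only 5 wells, against 18 UMIs in 13 wells on sham plate 1. Myo10 was seen in 25.0%, 16.7% and 17.5% of ppx wells and 25.0%, 31.6% and 28.0% of sham wells, which met at plate 1.

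The share was also set against the share that a Poisson draw at the plate's level and the wells' depths gives, where a ratio under 1 means that the UMIs are more clumped into few wells than an even level would make them. Over all 1000 insulin-only wells, each held to the level of its own plate, the ratio was 0.819 for Gad1, 0.859 for Trpm5 and Lyve1, 0.883 for Arc and Sgsm1, 0.934 for Myo10, 0.988 for Rap1gap2 and 0.989 for Camk2n1. Camk2n1 and Rap1gap2 thus had ratios close to 1. The expected share of Camk2n1 was already 76.9% to 82.4% on the ppx plates and 90.7% to 95.3% on the sham plates. Its ratio can therefore say little about clumping. On ppx plate 1 the ratio of Rap1gap2 was 0.587. The order of the others differed between the operations: in ppx wells the ratio was 0.868 for Lyve1, 0.876 for Trpm5 and 0.877 for Gad1, and in sham wells it was 0.852 for Lyve1, 0.844 for Trpm5, 0.778 for Gad1 and 0.829 for Arc. For Gad1 the ratio was 0.849, 0.825 and 0.930 on the ppx plates and 0.872, 0.720 and 0.826 on the sham plates, which overlap. For Trpm5 it was 1.07, 0.791 and 0.932 in ppx and 0.981, 0.767 and 0.895 in sham. At few UMIs per well the ratio also nears 1 whatever the spread. Arc had 1.07, 1.01 and 1.02 on the ppx plates, from 2, 4 and 9 UMIs. As levels were lower in ppx, the ratios cannot compare clumping between the operations.

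**Figure D2:**
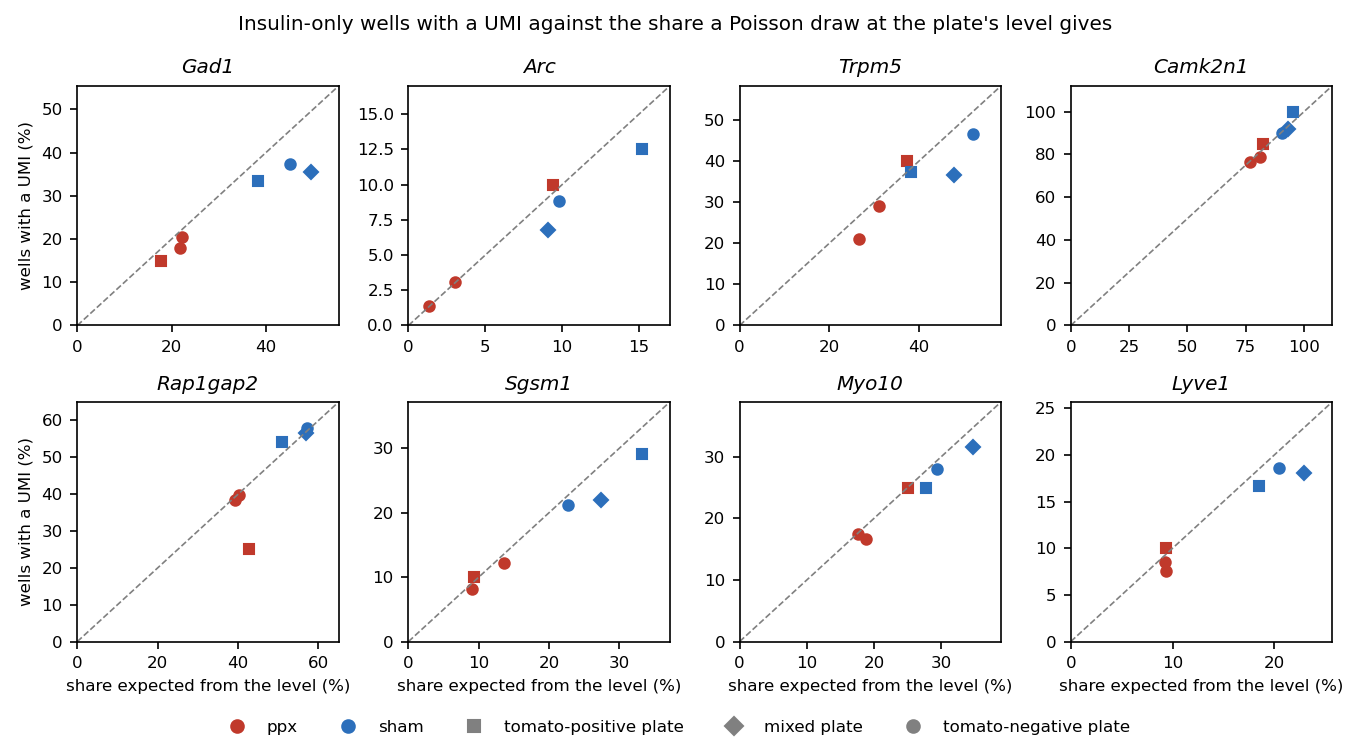
Share of insulin-only wells with a UMI (vertical axis, %) against the share that a Poisson draw at the plate's level gives (horizontal axis, %), by gene. Red points are ppx plates, blue points are sham plates, shapes give tomato status and the dashed line marks equal shares. Gad1 and Lyve1 sham plates lie below the line, while Camk2n1 plates lie along it.

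Across wells the levels of the 8 genes were only weakly correlated. Over the 28 pairs of genes, the mean correlation within plates of log2(CPM + 100) values ranged from -0.045 (Arc with Myo10) to 0.078 (Camk2n1 with Rap1gap2), as a description over sparse counts that share each well's depth. Gad1 and Trpm5 were seen together in 102 wells, where 89.6 would meet if they were independent within plates. Gad1 and Lyve1 met in 44 wells, against 35.5. Of the 1000 wells, 54 had none of the 8 genes, 215 had 1, 289 had 2, 235 had 3, 143 had 4, 48 had 5, 14 had 6 and 2 had 7.

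Splitting the larger plates by depth or by insulin share kept the order of all 8 genes. These wells are part of the contrast that chose the genes, so the split is a description only. In the shallower wells of each plate Gad1 had 57.5 and 64.8 CPM on ppx plates 2 and 3 and 97.1 and 165 CPM on sham plates 2 and 3, and in the deeper wells 63.2 and 58.8 CPM in ppx and 181 and 107 CPM in sham. In wells with less insulin it had 60.6 and 68.9 CPM in ppx and 160 and 143 CPM in sham, and in wells with more insulin 62.4 and 51.5 CPM in ppx and 142 and 114 CPM in sham. Camk2n1 had 427 and 498 CPM in ppx and 757 and 654 CPM in sham where insulin was lower, and 424 and 450 CPM in ppx and 623 and 529 CPM in sham where it was higher. Each of these groups of wells kept both ppx plates below both sham plates for all 8 genes.

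The next question was which islet cells carry the genes, a comparison that was not used to choose them. Among insulin-only, somatostatin-only, glucagon-only and hormone-low wells, Gad1, Trpm5 and Lyve1 were concentrated in insulin-only wells. Camk2n1 and Myo10 were shared with somatostatin-only wells, and Arc, Rap1gap2 and Sgsm1 had higher summed levels there. Wells with both insulin and somatostatin, described below, also held Gad1, Trpm5 and Lyve1. Their mean levels on ppx and sham plates were 18.2 and 42.9 CPM for Gad1, 110 and 98.6 CPM for Trpm5 and 15.3 and 25.6 CPM for Lyve1. By plate, Sgsm1 lay lower in insulin-only than in somatostatin-only wells on 6 of 6 plates, and Arc and Rap1gap2 on 4 of 6 each. Somatostatin-only wells (540, from delta cells by their hormone), glucagon-only wells (153) and wells low in all 3 hormones (174) were compared with insulin-only wells of the same plates, with plate as a block. The hormone-low class was a mix in which 61 wells rich in pancreatic polypeptide (Ppy) held 57.6% of the UMIs, 51 wells with endothelial markers 12.0% and 20 wells with macrophage markers 9.38%, so that values for the class are mainly those of Ppy-rich wells. Somatostatin-only wells were shallower, at median depths of 1504.5 to 2008.5 UMIs per plate. Ppx plate 1 and sham plate 1 held 224 and 212 of the somatostatin-only wells, but only 20 and 24 of the insulin-only wells. Levels summed over plates thus compare different plates.

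Gad1 had 415 UMIs or 92.0 CPM in insulin-only wells, against 7 UMIs or 7.12 CPM in somatostatin-only, 4 UMIs or 6.81 CPM in glucagon-only and 2 UMIs or 5.21 CPM in hormone-low wells. The log2 fold change of insulin-only wells was 3.48 (SE 0.54, edgeR adjusted p = 1.28e-08) over somatostatin-only, 4.14 (SE 0.58, adjusted p = 1.63e-10) over glucagon-only and 4.32 (SE 0.69, adjusted p = 1.73e-08) over hormone-low wells. It was higher on 6 of 6 plates in each comparison (exact two-sided sign flips, p = 0.0312, the smallest that n = 6 plates allow). The other classes held as few as 9 somatostatin-only, 6 glucagon-only and 12 hormone-low wells on a plate. Gad1, Trpm5 and Lyve1 each had 0 UMIs on at least 1 plate of each. A 0 in so small a sum counts as lower but is no bound. In these fits, without a filter on low counts, the median gene shifted by 0.109, 0.353 and 0.416 on the log2 scale in the same order, and 2.63%, 4.48% and 6.15% of 20810 genes were called higher.

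Trpm5 had 503 UMIs or 111 CPM in insulin-only wells and 4, 2 and 3 UMIs in somatostatin-only, glucagon-only and hormone-low wells. The log2 fold changes were 4.61 (SE 0.58, edgeR adjusted p = 3.8e-13), 5.17 (SE 0.64, adjusted p = 1.52e-13) and 4.10 (SE 0.61, adjusted p = 1.21e-09), again on 6 of 6 plates (exact two-sided sign flips, p = 0.0312 in each). A Trpm5 UMI was in 31.9% of insulin-only wells and in 0.741%, 1.31% and 1.72% of the other classes. Trpm5 overlaps Tssc4 on the opposite strand, and without a stated strand of counting their reads cannot be told apart there.

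Lyve1 was the third gene of this kind. It had 157 UMIs or 34.8 CPM in insulin-only wells and 3, 4 and 1 UMIs in the other classes in that order. The log2 fold change was 3.45 (SE 0.71, edgeR adjusted p = 8.48e-05) over somatostatin-only and 3.86 (SE 0.88, adjusted p = 0.000265) over hormone-low wells, on 6 of 6 plates. Over glucagon-only wells it was 2.70 (SE 0.63, adjusted p = 0.000721), on 5 of 6 plates, and the DESeq2 test gave an adjusted p of 0.0504, the highest of its 11 settings. Exact two-sided sign flips over the n = 6 plates gave p = 0.0625 for Lyve1 over somatostatin-only and over glucagon-only wells, and p = 0.0312 over hormone-low wells.

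Lyve1 is known from lymphatic endothelium and macrophages, so its wells were set beside markers of both. The 51 hormone-low wells with endothelial markers such as Plvap held 1 Lyve1 UMI, and the 20 with macrophage markers such as C1qb held 0 in a total where 3 UMIs would be 83.3 CPM. The 121 insulin-only wells with a Lyve1 UMI had 31.4 CPM of endothelial and 56.5 CPM of macrophage markers, against 29.4 and 46.2 CPM in the 879 wells without. The beta cell genes Mafa and Ucn3 stood at 915 and 946 CPM in the wells with a Lyve1 UMI, against 826 and 838 CPM in those without. Their median depth was 4741 UMIs, against 4152. Of 3 lymphatic genes, Pdpn had 0 UMIs in both, Flt4 had 2 UMIs (3.14 CPM) in wells with a Lyve1 UMI and 2 (0.516 CPM) in those without, and Prox1, which endocrine cells also express, had 29.8 CPM with and 28.6 CPM without.

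Camk2n1 had 528 CPM in insulin-only and 600 CPM in somatostatin-only wells when all UMIs were summed, with a blocked log2 fold change of 0.10 (SE 0.19, edgeR adjusted p = 0.755), and was higher on 4 of 6 plates. It was higher than in glucagon-only wells by 1.01 (SE 0.21, adjusted p = 7.9e-05) on 6 of 6 plates, and than in hormone-low wells by 0.88 (SE 0.22, adjusted p = 0.00118) on 5 of 6. In these filtered fits 20.7% and 19.9% of 2185 genes were called higher. Myo10 was higher than in glucagon-only wells by 1.45 (SE 0.43, adjusted p = 0.00515) on 5 of 6 plates. Against somatostatin-only (0.37, adjusted p = 0.47) and hormone-low wells (-0.26, adjusted p = 0.617) its difference did not pass. Exact two-sided sign flips over n = 6 plates gave p = 0.0312 for Camk2n1 over glucagon-only wells, and missed the threshold at p = 0.0625 for Camk2n1 over hormone-low and for Myo10 over glucagon-only wells.

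Rap1gap2 had 151 CPM in insulin-only and 244 CPM in somatostatin-only wells (log2 fold change -0.38, edgeR adjusted p = 0.111, and 0.0274 without sham plate 3). It lay lower in insulin-only than in glucagon-only wells on 6 of 6 plates, at -0.47 (SE 0.18, edgeR adjusted p = 0.03). That call was lost with DESeq2 (adjusted p = 0.093), with the RLE scaling (0.0535), with no count filter (0.876), without the tomato-positive plates (0.0938) and without ppx plate 3 (0.152), sham plate 1 (0.104) or sham plate 2 (0.106). Its higher level over hormone-low wells (log2 fold change 0.73, adjusted p = 0.0191, exact sign-flip p = 0.0938) was lost with DESeq2, in wells with at least 1000 UMIs, and without sham plate 2 (0.123) or sham plate 3 (0.121). Sgsm1 had 42.8 CPM in insulin-only and 94.6 CPM in somatostatin-only wells, and was lower on 6 of 6 plates (exact two-sided sign flips, p = 0.0312, n = 6). The edgeR log2 fold change of -0.91 (SE 0.37) missed the threshold at an adjusted p of 0.0535, while DESeq2 gave 0.0401, the fit without sham plate 1 gave 0.012 and the fit without a count filter gave 0.318. Arc had 12.4 CPM in insulin-only and 33.6 CPM in somatostatin-only wells (log2 fold change -0.91, SE 0.49, adjusted p = 0.439), and it did not differ past the threshold from any class.

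**Figure D3:**
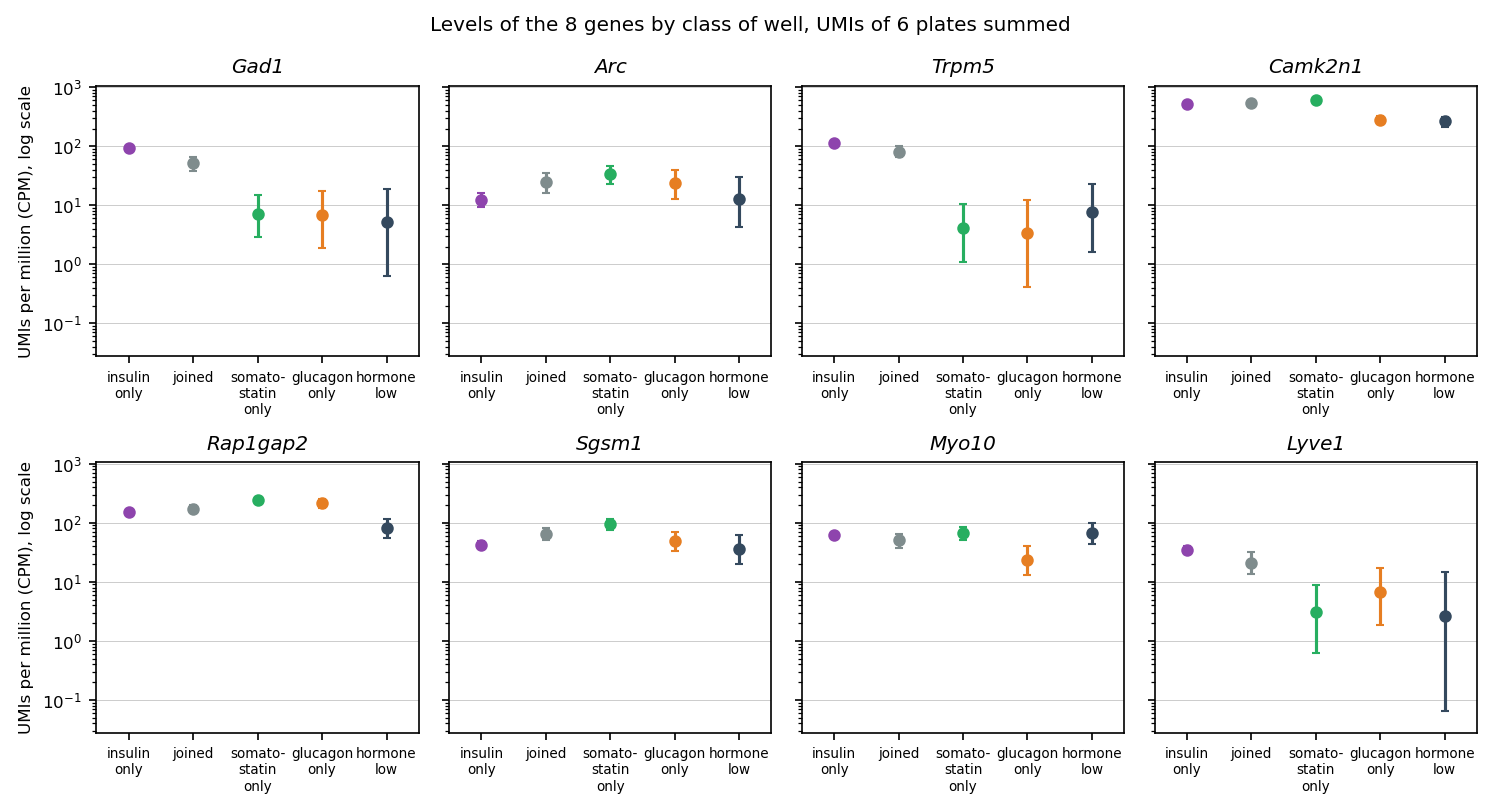
Levels of the 8 genes by class of well, in CPM on a log scale, with the UMIs of 6 plates summed and exact 95% Poisson intervals of the counts. The plates weigh differently in each class. Gad1, Trpm5 and Lyve1 lie at 92.0, 111 and 34.8 CPM in insulin-only wells and under 8 CPM in somatostatin-only, glucagon-only and hormone-low wells.

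Wells that held both insulin and somatostatin, joined beta and delta cells by their hormones, give another view of the operations in insulin-containing wells. There were 77, 6 and 5 on the ppx plates and 56, 25 and 6 on the sham plates, so plate 1 dominates. Camk2n1 had 417, 465 and 576 CPM in ppx and 695, 644 and 615 CPM in sham joined wells, without overlap, with a log2 fold change of -0.53 (SE 0.18, edgeR adjusted p = 0.744). Gad1 had 54.5, 0 and 0 CPM in ppx and 59.8, 43.4 and 25.6 CPM in sham joined wells, and all 29 ppx UMIs were on plate 1. Its log2 fold change was -0.07 (SE 0.57), and -5.72 without ppx plate 1, where the other ppx plates hold no UMI and the value is no bound.

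None of the 8 genes was called in joined wells, where 0.0908% of 1101 genes were called lower with the count filter and 0.0192% of 15628 were called lower and 0.0064% higher without it. Without the filter the log2 fold changes were -0.01 (SE 0.80) for Arc, -0.31 (SE 0.48) for Trpm5, -0.43 (SE 0.41) for Rap1gap2, -0.03 (SE 0.52) for Sgsm1, 0.40 (SE 0.56) for Myo10 and -0.73 (SE 0.78) for Lyve1. Each error exceeds its value, except that of Rap1gap2. With the filter, Camk2n1 alone had an unadjusted edgeR p under 0.05, and DESeq2 called 0 of the 2 genes that passed it. The difference between the classes of well was not tested.

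**Figure D4:**
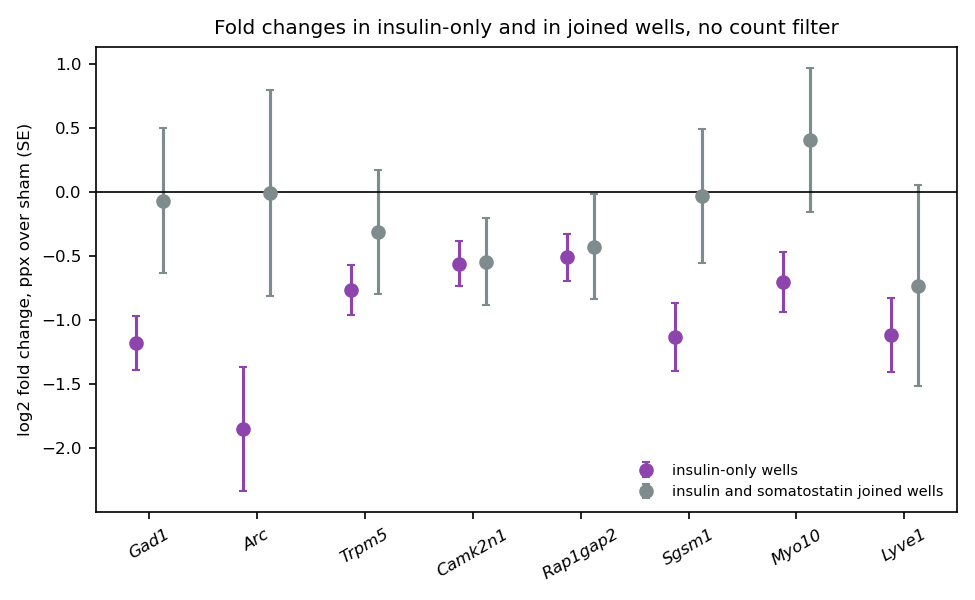
Log2 fold change of ppx over sham for each gene in insulin-only wells and in joined insulin and somatostatin wells, both fitted without a count filter, with standard errors. In insulin-only wells all 8 lie below 0. In joined wells the errors are wider and Gad1, Arc and Sgsm1 lie near 0.

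In the other endocrine wells, the 2 genes that passed the count filter showed no called difference between the operations by edgeR or DESeq2, and 0 had an unadjusted p under 0.05. Camk2n1 differed by 0.16 (SE 0.25, edgeR adjusted p = 1) in somatostatin-only and by -0.26 (SE 0.38, adjusted p = 0.934) in glucagon-only wells, and Rap1gap2 by -0.14 (SE 0.27, adjusted p = 1) and -0.46 (SE 0.33, adjusted p = 0.834). In these fits 0 of 923 and 1 of 685 genes were called lower. Without the filter 0.019% of genes were called higher and 0 lower in somatostatin-only wells, and 0.0429% higher and 0.0214% lower in glucagon-only wells. Sgsm1 had 0, 14.6 and 31.7 CPM in glucagon-only wells of the ppx plates and 94.5, 43.0 and 67.2 CPM on the sham plates. The plates did not overlap, and the ppx wells held 2 UMIs in 31 wells against 27 UMIs in 122 sham wells. Without a count filter the log2 fold change was -2.25 (SE 0.91, edgeR unadjusted p = 0.0138, adjusted p = 0.841). Of the 8 genes, Sgsm1 alone had an unadjusted p under 0.05 in that fit. Gad1, Trpm5 and Lyve1 had 5 or fewer UMIs per operation in either class.

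The other genes of the same pathways were read from 6 lists, of which 0 of 79 tested members were called in insulin-only wells between the operations by edgeR or by DESeq2, with 11 at an unadjusted p under 0.05 by edgeR and 5 by DESeq2. List medians on the log2 scale are set beside -0.01 for all 8181 genes, of which 727 had an unadjusted p under 0.05. Of 19 genes of GABA handling, 11 were tested, 6 of them below 0, with a median of -0.07. Glul, which makes glutamine from glutamate, differed by -0.48 (SE 0.16, adjusted p = 0.282) and Abat, which breaks GABA down, by 0.18 (SE 0.19, adjusted p = 0.86). Gabbr1, a subunit of the GABA-B receptor, differed by -0.74 (SE 0.36, adjusted p = 0.558).

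Of 18 other immediate early genes, the class that Arc belongs to, 12 were tested and 5 lay below 0, with a median of 0.11. Fos, a transcription factor switched on by many stimuli, had 1675, 1963 and 2065 CPM in ppx and 1990, 1841 and 1568 CPM in sham insulin-only wells, which overlap. Nr4a2 differed by 1.03 (SE 0.44, adjusted p = 0.466) and Fosb by 0.32 (SE 0.14, adjusted p = 0.471). Dissociation of islets also switches these genes on, and its part was not tested. Between classes, all 6 tested (Fos, Fosb, Junb, Egr1, Ier2 and Dusp1) were lower in insulin-only than in glucagon-only wells, where 21.0% of genes were, and 4 of 6 were lower than in somatostatin-only wells, where 16.7% of genes were.

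Of 27 genes of excitability and calcium signalling, 22 were tested and 14 lay below 0, with a median of -0.20. Cacna1d, a calcium channel subunit, differed by -0.79 (SE 0.27, adjusted p = 0.282) and Kcnk16, a potassium channel, by 0.39 (SE 0.14, adjusted p = 0.321). Camk2n2, the sister inhibitor of CaMKII, had 99.6, 133 and 120 CPM in ppx and 84.4, 110 and 82.4 CPM in sham wells, which overlap, while Camk2n1 lay lower on every ppx plate. Trpm4, the channel most like Trpm5, had 65 UMIs in all insulin-only wells.

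Of 26 regulators of Rap and Rab proteins, 20 were tested and 11 lay below 0, with a median of -0.06. Rims3, which works at release sites, differed by -0.74 (SE 0.20, adjusted p = 0.121) and Rab3d, a granule GTPase, by 0.55 (SE 0.16, adjusted p = 0.156). Rap1gap, a relative of Rap1gap2, differed by -0.65 (SE 0.31, edgeR adjusted p = 0.546), in the same direction as Rap1gap2. It had 9.06, 17.2 and 24.3 CPM in ppx and 35.2, 31.95 and 27.1 CPM in sham wells, which do not overlap. Of 20 genes of filopodia and unconventional myosins 12 were tested, with a median of 0.04, and Myo5a, a granule motor, differed by -0.73 (SE 0.24, adjusted p = 0.269). Of 12 genes of hyaluronan and lymphatic endothelium only Cd44 and Prox1 were tested. Cd44, the other main hyaluronan receptor, differed by 0.67 (SE 0.24, adjusted p = 0.342), with 63.4, 52.4 and 56.7 CPM in ppx and 28.1, 35.5 and 31.3 CPM in sham wells, which do not overlap and lie in the order opposite to Lyve1.

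The genes with the most similar pattern over 15 sums of wells (by plate and class) among 4157 genes were found by Pearson's r on log2(CPM + 10), as a description of sums that share plates and cell classes. Gad1 and Lyve1 were each other's nearest, at 0.98. The 8 genes were kept here whatever their counts, while other genes had to pass a count limit that Lyve1 did not reach. Both were chosen by low ppx levels in the insulin-only sums used here, so nothing is read from their likeness. Among genes held to the limit, Pcx was nearest to both, at 0.947 for Gad1 and 0.952 for Lyve1. Trpm5 was nearest to Gm21974 (0.98), Tmem215 (0.98) and Ucn3 (0.97), a beta cell hormone of the urocortin family. Arc was nearest to Kctd13 (0.865), Camk2n1 to Papola (0.89), Rap1gap2 to Cystm1 (0.90), Sgsm1 to Faap20 (0.88) and Myo10 to Mib1 (0.94).

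At the edges of the class, the 6 wells within 2 times above the insulin limit held 0 UMIs of Gad1, Trpm5 and Lyve1, and the 29 wells within 2 times below it held 0, 1 and 1. The 11 wells within 2 times below the somatostatin limit held 0 Gad1 and 4 Trpm5 UMIs, and the 38 wells within 2 times above it held 14 and 21.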

How the data were processed

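The authors deposited UMI counts, with 1 table per plate and 1 column per well, as whole numbers that had not been normalised. Alignment used HISAT 0.1.6 and the mm10 build, according to the submitters' processing notes, while the counting tool, strand and annotation were not given in the sources used here. Wells with under 500 UMIs (96) or over 20% mitochondrial UMIs (93) were left out, and no doublets were removed. UMIs were summed per plate and class of well (at least 10 insulin-only wells, at least 5 for others), and CPM are UMIs per 1000000 of that sum.

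The quasi-likelihood test of edgeR 4.0.16 in R 4.3.3, with TMM scaling and genes kept by filterByExpr, compared the sums without a replicate block, and DESeq2 1.42.0 was the second tool. Calls had a Benjamini-Hochberg adjusted p under 0.05. Class comparisons had plate as a block and also exact sign flips over 6 plates. For the sign flips a fraction of a UMI was added to each count. A plate with 0 UMIs in a small sum can thereby change sides, while plates counted as higher or lower were compared by CPM without it. The count filter removed Gad1, Arc, Trpm5 and Lyve1 from the class fits. From the fits between operations in joined, somatostatin-only and glucagon-only wells it removed these genes and also Sgsm1 and Myo10. Fold changes and p-values of the removed genes come from the fit without a filter. Thinned shares are means over all draws (Python 3.11.15, numpy 2.4.6, pandas 2.3.3). Scripts were tested on simulated data. From each pathway list the 1 or 2 genes with the smallest p were named. Abat, Fos, Camk2n2, Trpm4 and Rap1gap were added after their values were seen. The 8 genes and the lists were chosen with earlier results of these data known.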

Additional observations from a re-analysis of the deposited data

Results flagged for a closer look

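In 2 cases the operations moved a gene one way in insulin-only wells and the other way in another class, judged by every plate lying on its own side of the other operation's mean. Camk2n1 in hormone-low wells had 442, 247 and 324 CPM on the ppx plates and 256, 90.2 and 213 CPM on the sham plates, a difference of means of 151.37 CPM, while it lay lower on every ppx plate in insulin-only wells. The class held other wells in each operation, with 42 Ppy-rich wells in ppx and 19 in sham, 15 and 36 with endothelial markers and 6 and 14 with macrophage markers. Camk2n1 stood at 316 CPM in Ppy-rich wells, 173 CPM in those with endothelial and 83.3 CPM in those with macrophage markers, and the part of this mix in the difference was not tested. Myo10 in somatostatin-only wells had 74.3, 59.6 and 116 CPM on the ppx plates and 61.2, 43.2 and 55.0 CPM on the sham plates, a difference of means of 30 CPM, and lay lower on every ppx plate in insulin-only wells. The plates of the operations overlap in both classes, and ppx plates 2 and 3 held only 9 and 12 somatostatin-only wells. The difference between classes was not tested in either case.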

How the results depend on the processing

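All 8 genes kept a log2 fold change below 0 in insulin-only wells in each of 14 alternatives, and Gad1, Trpm5 and Lyve1 kept their direction over the 3 other classes in each of 11 settings. The number of genes called in insulin-only wells was 27, and became 10 with DESeq2, 67 without a count filter, 50 with stricter hormone thresholds, 57 without the tomato-positive plates and 12 to 49 when plates were left out in turn. Same-numbered plates did not pair (r of 0.021, 0.021 and 0.012 in insulin-only wells), and with the replicate block 61, 4, 1 and 5 genes were called in insulin-only, somatostatin-only, glucagon-only and joined wells, against 27, 1, 4 and 1 without it. Without the count filter the last 3 counts were 3, 9 and 4, glucagon-only wells gave 1 with DESeq2 and 0 in wells with at least 1000 UMIs, and leaving out plates gave 1 to 9, 0 to 8 and 0 to 5. Between classes, insulin-only over somatostatin-only wells gave 764 calls and 491 without the tomato-positive plates. Without a filter, the calls over glucagon-only wells were 1407 in place of 910, and over hormone-low wells 2560 in place of 894.

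Of the values that turned sign, none was called in any setting. Sgsm1 over glucagon-only wells (-0.02) was 0.035 with DESeq2, 0.042 with RLE, 0.218 without a filter, 0.034 without the tomato-positive plates and -0.091 to 0.138 without single plates. Over hormone-low wells Arc (0.45) was -0.096 with RLE, -0.038 with DESeq2 and -0.099 without the tomato-positive plates, Sgsm1 (0.08) was -0.014 with DESeq2 and Myo10 (-0.26) was 0.245 without a filter. Leaving out plates moved Camk2n1 between -0.50 and 0.34 in glucagon-only wells and between -0.11 and 0.21 over somatostatin-only wells, and, in joined wells, Gad1 between -5.72 and 0.263 (0.13 and 0.104 without ppx plate 2 or 3), Arc between -1.03 and 0.152 (0.007 without sham plate 2), Sgsm1 between -0.499 and 0.089 (0.009 without sham plate 2) and Myo10 between -0.819 and 0.645. The cause was not tested. Precision is limited by the 20 and 24 insulin-only wells of the tomato-positive plates and by the 56 Arc UMIs.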

Other observations

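Pancreatic polypeptide, encoded by Ppy, is the hormone of a further islet cell type. The 61 wells of the hormone-low class in which Ppy took at least 1% of UMIs had a median depth of 3371 UMIs and were compared with insulin-only wells only as part of that class. They held 0 Gad1, 0 Lyve1 and 1 Trpm5 UMI, in a total where 3 UMIs are 13.6 CPM. They held 70 Camk2n1 UMIs (316 CPM), 19 Rap1gap2 UMIs (85.8 CPM), 13 Myo10 UMIs (58.7 CPM), 11 Sgsm1 UMIs (49.7 CPM) and 2 Arc UMIs (9.03 CPM). In hormone-low wells with endothelial markers, Myo10 had 6 UMIs (130 CPM) in 51 wells and Rap1gap2 and Sgsm1 had 0. In that total 3 UMIs are 64.9 CPM, above the 42.8 CPM of Sgsm1 in insulin-only wells.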
